A study of Mus musculus with 12 samples.

Results

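The 10 genes described here mark dendritic cells, and they were taken by symbol from a TPM table of 23667 gene symbols: Xcr1, Clec9a, Batf3, Irf8, Zbtb46, Flt3, Itgax, Ccr7, Cd209a and Siglech. All 10 were present in the table, which holds 12 RNA-seq libraries of mammary tumours of 4T1, a carcinoma line from the mouse mammary gland. The tumour cells were controls (CTRL) or were depleted of TREX1, an exonuclease of cytosolic DNA, by CRISPR-Cas9 editing (TREX1 KO in the labels, KO below). Mice received either 200 ug of an antibody to PD1 with 100 ug of an antibody to CTLA4, 3 times weekly over 1 week (ICB), or matched isotype antibodies (IgG). There were 3 libraries in each of the 4 groups CTRL-IgG, CTRL-ICB, KO-IgG and KO-ICB. The labels used here give neither the strain nor the age of the mice, nor whether the KO cells were 1 clone. The edit was made in the tumour cells, and host cells of a tumour, dendritic cells among them, keep their own Trex1.

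Dendritic cells take up antigen in tissues and present it to T cells. Conventional dendritic cells of type 1 (cDC1) cross-present antigen to CD8 T cells and are produced under the transcription factors BATF3 and IRF8. Type 2 cells (cDC2) present mainly to CD4 T cells, plasmacytoid cells (pDC) secrete type I interferon, and a mature cell of either conventional type carries CCR7, which guides it along CCL19 and CCL21 to the draining lymph node. In tumours, cDC1 are known for carrying tumour antigen to lymph nodes and for answering XCL1, a chemokine secreted by NK and T cells.

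Before the members, 3 facts of the libraries bear on every value. Trex1 transcript lay between 32.8 and 46.2 TPM in the CTRL libraries and between 56.0 and 72.2 TPM in the libraries labelled KO, so a loss of the transcript was not seen and the labels could not be checked by it. Libraries 2 and 3 of KO-IgG were nearly identical, as were libraries 1 and 2 of KO-ICB (robust SD of the log2 ratio 0.0619 and 0.0382 over genes above 300 TPM, against 0.219 to 0.686 in the other 10 pairs within a group), and each pair was averaged and counted as 1 sample. This left 6 CTRL and 4 KO samples. KO-IgG replicate 1 stood apart: Epcam, an epithelial adhesion molecule, was at 0.66 TPM there and at 87.1 to 1239 TPM elsewhere, while the leukocyte antigen gene Ptprc (CD45) was at 61.3 TPM against 18.3 to 34.3 TPM elsewhere. CTRL-IgG replicate 3 and CTRL-ICB replicate 3 held keratinocyte transcript, with Krt5 at 328 and 770 TPM. TPM keeps no read depth, so the precision of a low value is unknown and no counting interval can be given.

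Averaged over both antibody treatments, no dendritic cell gene passed the test between KO and CTRL tumours. The cDC1 receptor gene Xcr1 came closest, though it entered the test through KO libraries only. It was the only member whose 6 KO libraries all lay above the 6 CTRL libraries, as was so for 1.61% of all genes tested. Flt3, Ccr7, Batf3, Clec9a and Irf8 had higher means in KO tumours, in which 1 library, KO-IgG replicate 1, held the highest value for all of these but Flt3. Itgax and Zbtb46 were nearly level between the genotypes. In bulk tumour RNA, fewer cells of a type and less RNA per cell cannot be told apart.

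The levels of the members differed widely. Over the 12 libraries the median TPM, a per-length scale on which genes can be compared, was 57.7 for Irf8, 20.3 for Itgax, 7.94 for Batf3, 3.17 for Zbtb46 and 1.67 for Ccr7. It was 0.898 for Clec9a, 0.624 for Xcr1, 0.564 for Flt3, 0.556 for Siglech and 0.180 for Cd209a. Irf8 and Itgax were the only neighbours in this order whose ranges over the libraries did not overlap. The defining markers of cDC1, cDC2 and pDC were thus near the bottom of the measured range, while the most abundant members, Irf8 and Itgax, are also transcribed by macrophages. Some values differed even within a nearly identical pair. In libraries 2 and 3 of KO-IgG, nearly identical otherwise, Siglech differed 6.30-fold (0.573 and 0.091 TPM), Clec9a 2.85-fold and Batf3 1.91-fold, and in libraries 1 and 2 of KO-ICB Cd209a was at 0.689 and at 0 TPM. Irf8, Itgax, Zbtb46 and Flt3, the last of them also low, differed by at most 1.21-fold within either pair, and Xcr1 by at most 1.36-fold.

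A gene entered the test if it reached 1 TPM in 3 or more of the 12 libraries, and 8 of the 10 members did. Cd209a and Siglech did not, each reaching 1 TPM in 1 library alone. Xcr1 and Flt3 met it through KO libraries only, so their entry into the test depended on the group in which they were high.

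Xcr1 encodes the receptor for XCL1 and in mice marks cDC1. It lies on chromosome 9 of GRCm38 from 123852315 to 123862029, on the minus strand. In replicate order, its level was 0.53, 0.37 and 0.34 TPM in CTRL-IgG, and 0.39, 0.19 and 0.23 TPM in CTRL-ICB. In KO-IgG it was 3.18, 1.11 and 1.09 TPM, and in KO-ICB 0.72, 0.98 and 0.86 TPM. Every KO library therefore exceeded every CTRL library, also when KO-IgG replicate 1 was left out. Such separation was met by 1.61% of the 13886 genes tested with all 12 libraries and by 5.15% without KO-IgG replicate 1, and by 1 of the 10 members in either case.

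The mean of Xcr1 was 0.340 ± 0.123 TPM (SD, n = 6) in CTRL and 1.498 ± 1.13 TPM (SD, n = 4) in KO tumours. On log2(TPM + 1), a scale that understates changes of low genes, the difference was 0.81 ± 0.24 (SE), with a limma p adjusted over all genes (Benjamini-Hochberg) of 0.238. With a pseudocount of 0.1 it was 1.69 ± 0.51 (SE, limma adjusted p = 0.261). In that comparison 0.108% of the genes tested were called at an adjusted p under 0.05. Counting all 12 libraries singly called 0 members and 3.23% of genes. Without KO-IgG replicate 1 the log2 fold change was 0.56 ± 0.21 (SE, limma adjusted p = 0.198), where 1.97% of genes were called. Only when that library was left out and the nearly identical libraries were counted singly, an alternative chosen after the data were seen, was Xcr1 called (0.56 ± 0.15 SE, limma adjusted p = 0.0331), and then 16.3% of all genes were called as well.

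Clec9a encodes DNGR-1, a receptor of cDC1 for actin filaments exposed by dying cells. It lies on chromosome 6 from 129408862 to 129424763, on the plus strand, within a span it shares with Clec1b, a gene of the same strand, so reads can be split between both. Clec9a stood at 0.43, 1.68 and 0.54 TPM in CTRL-IgG, 0.57, 0.88 and 0.35 TPM in CTRL-ICB, 4.65, 1.66 and 0.58 TPM in KO-IgG, and 0.91, 1.26 and 1.16 TPM in KO-ICB. KO-IgG replicate 1 was far above the rest, and the remaining KO libraries overlapped CTRL-IgG replicate 2. The log2 fold change was 0.68 ± 0.32 (SE, limma adjusted p = 0.452) and 0.33 without KO-IgG replicate 1.

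The 270-base stretches that end 20 bases after the RefSeq start of these paired cDC1 markers (GRCm38.p6) are printed here because both genes encode surface receptors that mark the same cell. Capitals mark a match, on either strand, to GAAANNGAA, the spaced half-sites of an interferon-stimulated response element bound by IRF factors.
Xcr1, chr9:123862010-123862279, minus strand: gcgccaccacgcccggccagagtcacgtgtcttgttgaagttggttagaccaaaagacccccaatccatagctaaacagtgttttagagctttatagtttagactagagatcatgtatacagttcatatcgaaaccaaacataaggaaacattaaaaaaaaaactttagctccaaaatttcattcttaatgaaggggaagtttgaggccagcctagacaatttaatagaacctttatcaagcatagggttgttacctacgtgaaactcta
Clec9a, chr6:129408612-129408881, plus strand: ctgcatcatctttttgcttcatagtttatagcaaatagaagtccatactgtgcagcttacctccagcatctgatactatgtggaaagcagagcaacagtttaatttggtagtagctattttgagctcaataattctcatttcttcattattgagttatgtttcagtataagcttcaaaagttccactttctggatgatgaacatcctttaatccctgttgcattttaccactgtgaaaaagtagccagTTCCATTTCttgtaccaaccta
The Clec9a match began 2 bases before the start, and the Xcr1 window held none. Of 32851 RefSeq promoter windows running from 250 bases before to 50 after a start, 8.56% held this motif. Among the 9 members with such a window it was found in Clec9a alone, while TGANTCA, an AP-1 motif, was found in Zbtb46 and Itgax (7.81% of all windows) and GAGGAAG, a PU.1 motif, in Batf3 (13.6%). These are letter matches and were not tested for binding.

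Batf3, the cDC1 transcription factor that T cells also transcribe, lies on chromosome 1 from 191097847 to 191108945. Its level was 4.99, 9.97 and 7.09 TPM in CTRL-IgG, 9.40, 7.48 and 3.28 TPM in CTRL-ICB, 31.6, 5.04 and 9.63 TPM in KO-IgG, and 9.93, 7.37 and 8.39 TPM in KO-ICB. Apart from KO-IgG replicate 1, the KO libraries lay within the CTRL range. The log2 fold change of 0.71 ± 0.40 (SE, limma adjusted p = 0.541) was 0.22 ± 0.33 without that library.

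Irf8, needed for both cDC1 and pDC and also transcribed by macrophages and B cells, lies on chromosome 8 from 120736358 to 120756694 and shares its span with Gm20388 on the same strand. It was at 45.9, 54.0 and 41.4 TPM in CTRL-IgG, 63.7, 52.3 and 36.2 TPM in CTRL-ICB, 79.8, 63.9 and 60.9 TPM in KO-IgG, and 60.2, 61.5 and 55.2 TPM in KO-ICB. KO libraries lay in the upper part of the range, with CTRL-ICB replicate 1 among them. The mean was 48.9 ± 9.82 TPM in CTRL (SD, n = 6) and 64.6 ± 10.6 TPM in KO (SD, n = 4), and the log2 fold change 0.40 ± 0.18 (SE) did not pass (limma adjusted p = 0.434).

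**Figure D1:**
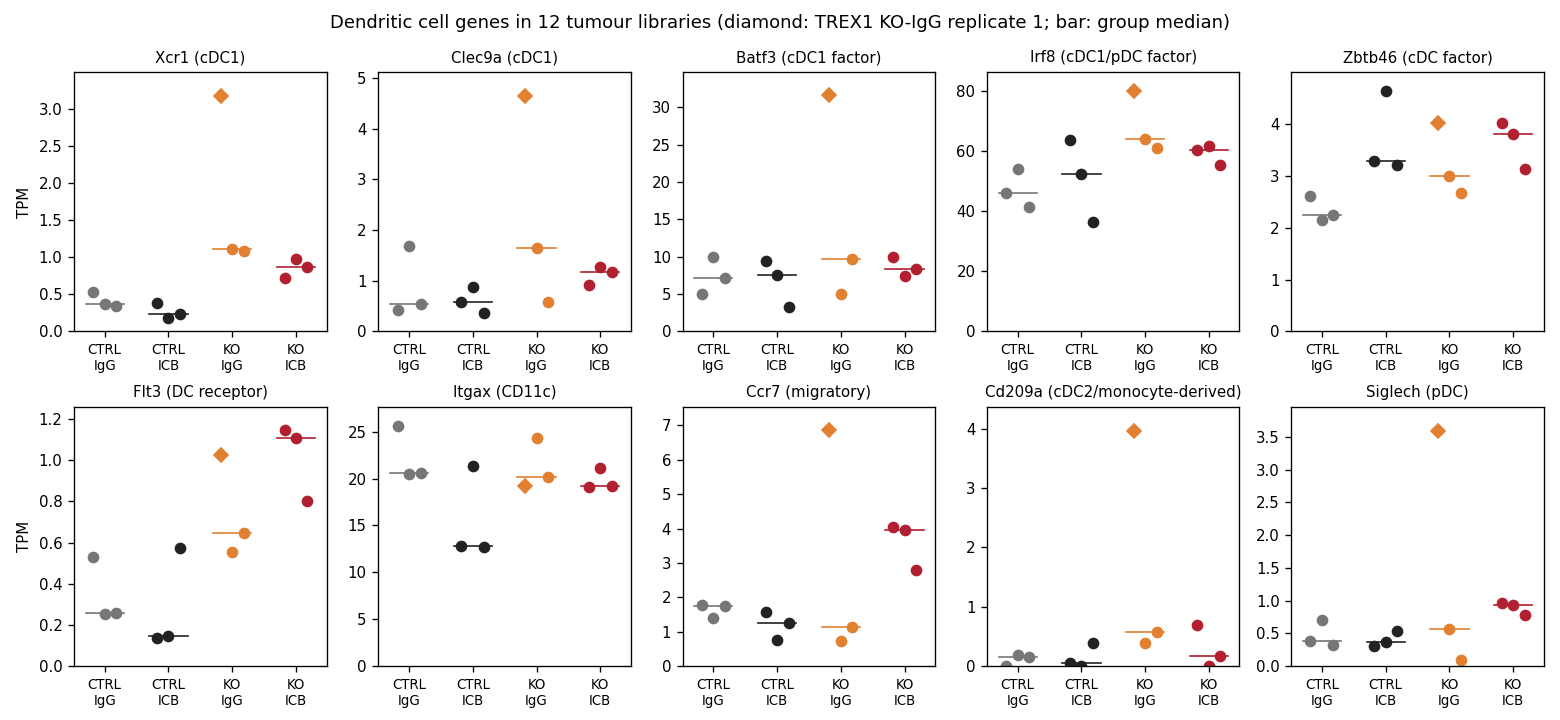
Level of each of the 10 dendritic cell genes in TPM (vertical axis, linear, starting at 0) in the 12 tumour libraries by group, with each point a library and each bar the group median of the 3 libraries. The diamond is KO-IgG replicate 1, which is highest for 7 of the 10 genes and for 21.9% of all genes tested. Xcr1 is the only one of the 10 whose KO libraries (lowest 0.72 TPM) all lie above the CTRL libraries (highest 0.53 TPM). The same holds for 1.61% of all genes tested.

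The genes shared by conventional dendritic cells did not move alike. Flt3 encodes the receptor for FLT3 ligand, on which dendritic cell development depends, and lies on chromosome 5 from 147330741 to 147400489. Flt3 was at 0.53, 0.25 and 0.26 TPM in CTRL-IgG, 0.14, 0.15 and 0.57 TPM in CTRL-ICB, 1.02, 0.55 and 0.65 TPM in KO-IgG, and 1.15, 1.11 and 0.80 TPM in KO-ICB. The groups overlapped only through CTRL-ICB replicate 3, which was just above KO-IgG replicate 2. The mean was 0.316 ± 0.189 TPM in CTRL (SD, n = 6) and 0.888 ± 0.236 TPM in KO (SD, n = 4). The log2 fold change was 0.52 ± 0.22 (SE, limma adjusted p = 0.391), 0.44 ± 0.23 without KO-IgG replicate 1, and 1.34 ± 0.58 with a pseudocount of 0.1. An antisense gene, Gm26597, overlaps Flt3, and whether counting used strand is not given in the sources used here.

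Zbtb46, a transcription factor of conventional dendritic cells that endothelial cells also transcribe, lies on chromosome 2 from 181387762 to 181459426. Its level was 2.61, 2.16 and 2.25 TPM in CTRL-IgG, 3.29, 4.64 and 3.21 TPM in CTRL-ICB, 4.03, 3.01 and 2.68 TPM in KO-IgG, and 4.02, 3.81 and 3.13 TPM in KO-ICB. The CTRL-IgG libraries were the lowest 3 of the 12, and the other 3 groups overlapped. The KO against CTRL log2 fold change was 0.17 ± 0.20 (SE, limma adjusted p = 0.789).

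Itgax encodes the integrin CD11c, carried by dendritic cells and by many macrophages, and lies on chromosome 7 from 128129547 to 128150657. It stood at 25.6, 20.5 and 20.6 TPM in CTRL-IgG, 12.8, 21.3 and 12.7 TPM in CTRL-ICB, 19.2, 24.4 and 20.2 TPM in KO-IgG, and 19.1, 21.1 and 19.2 TPM in KO-ICB. The 2 lowest libraries were both CTRL-ICB, and KO-IgG replicate 1 was not high. The KO against CTRL log2 fold change was 0.13 ± 0.19 (SE, limma adjusted p = 0.836). Taken relative to Ptprc in each sample, the difference was -0.06 for Itgax and -0.01 for Zbtb46, against 0.63 for Xcr1, none of which passed.

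Ccr7, the receptor of migrating mature dendritic cells and of naive T cells, lies on chromosome 11 from 99144196 to 99155077. It was at 1.79, 1.41 and 1.75 TPM in CTRL-IgG, 1.58, 0.77 and 1.26 TPM in CTRL-ICB, 6.87, 0.73 and 1.13 TPM in KO-IgG, and 4.05, 3.97 and 2.81 TPM in KO-ICB. All 3 KO-ICB libraries were above every CTRL library, whereas libraries 2 and 3 of KO-IgG were below every CTRL-IgG library. The share of all genes with such an order was not computed, so nothing is read from it. The averaged log2 fold change was 0.78 ± 0.36 (SE, limma adjusted p = 0.444) and 0.28 ± 0.23 without KO-IgG replicate 1. Naive and central memory T cells are among the other cells known to carry CCR7. The summed level of 6 of their markers was 63.5 TPM in KO-IgG replicate 1, 27.9 and 28.4 TPM in libraries 2 and 3 of KO-IgG, 38.9 to 43.7 TPM in KO-ICB and 36.1 to 70.4 TPM in CTRL. Among the KO libraries both Ccr7 and this sum were highest in KO-IgG replicate 1 and lowest in libraries 2 and 3 of KO-IgG. KO-ICB exceeded CTRL in Ccr7 but lay within its range in the sum. The single markers did not all follow the sum. In KO-IgG replicate 1 Klf2 made up 37.5 of the 63.5 TPM, and 0 of the 6 markers were highest of the 12 libraries there. Tcf7 was lowest of the KO libraries there, at 4.18 TPM against 4.75 to 6.80 TPM. The part of naive and central memory T cells in Ccr7 was not tested.

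Cd209a, a lectin of cDC2 and of dendritic cells derived from monocytes, lies on chromosome 8 from 3743397 to 3748984 and belongs to a family of similar genes among which reads can be split. It was listed at 0 in 3 libraries. CTRL-IgG stood at 0, 0.20 and 0.15 TPM, CTRL-ICB at 0.05, 0 and 0.40 TPM, KO-IgG at 3.96, 0.39 and 0.57 TPM, and KO-ICB at 0.69, 0 and 0.16 TPM. Only KO-IgG replicate 1 exceeded 1 TPM. With no filter on low values the log2 fold change was 0.71 ± 0.31 (SE, limma adjusted p = 0.536), and it was 0.28 ± 0.14 without that library.

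Siglech, a receptor that marks mouse pDC, lies on chromosome 7 from 55768178 to 55778925. It was at 0.38, 0.71 and 0.32 TPM in CTRL-IgG, 0.30, 0.37 and 0.54 TPM in CTRL-ICB, 3.59, 0.57 and 0.09 TPM in KO-IgG, and 0.97, 0.94 and 0.79 TPM in KO-ICB. The KO-ICB libraries were above all CTRL libraries, an order whose share over all genes was not computed. KO-IgG held both the highest and the lowest value of the 12. With no filter the log2 fold change was 0.59 ± 0.32 (SE, limma adjusted p = 0.639), and 0.14 ± 0.15 without KO-IgG replicate 1.

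The 8 tested members all had a positive log2 fold change averaged over both treatments, as did 46.2% of all genes tested. Their median was 0.60 beside -0.03 for all genes tested. The unadjusted limma p was under 0.05 for 2 of the 8, Xcr1 and Flt3, and for 11.5% of all genes. These 2 members entered the test through KO libraries only, which favours a positive sign for them. Nothing is therefore read from that count or from their signs, and the median of 0.60 includes both. Without KO-IgG replicate 1 the median was 0.30 beside -0.09 for all genes. KO-IgG replicate 1 was the highest of the 12 libraries for 7 of the 10 members and for 21.9% of all genes tested. Markers of some other leukocytes were high there too, but not those of all. The summed level of 12 macrophage and monocyte markers was 10616 TPM there, against 5452 to 6142 TPM for the remaining KO tumours and 2572 to 8022 TPM in CTRL, with 11 of the 12 genes highest in KO-IgG replicate 1. The sum of 8 T cell markers was 181 TPM there, against 74.9 to 80.2 TPM for the remaining KO tumours and 38.8 to 66.1 TPM in CTRL. That of 8 B cell markers was 16.1 TPM, against 1.52 to 4.43 TPM and 2.07 to 3.17 TPM. The sum of 8 neutrophil markers was 95.8 TPM there, within the 32.8 to 116 TPM of the remaining KO tumours and below the 182 to 904 TPM of CTRL. That of 7 NK cell markers, 139 TPM, was also within the range of the remaining KO tumours (95.8 to 142 TPM). The part of these cells in the members' values was not tested.

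**Figure D2:**
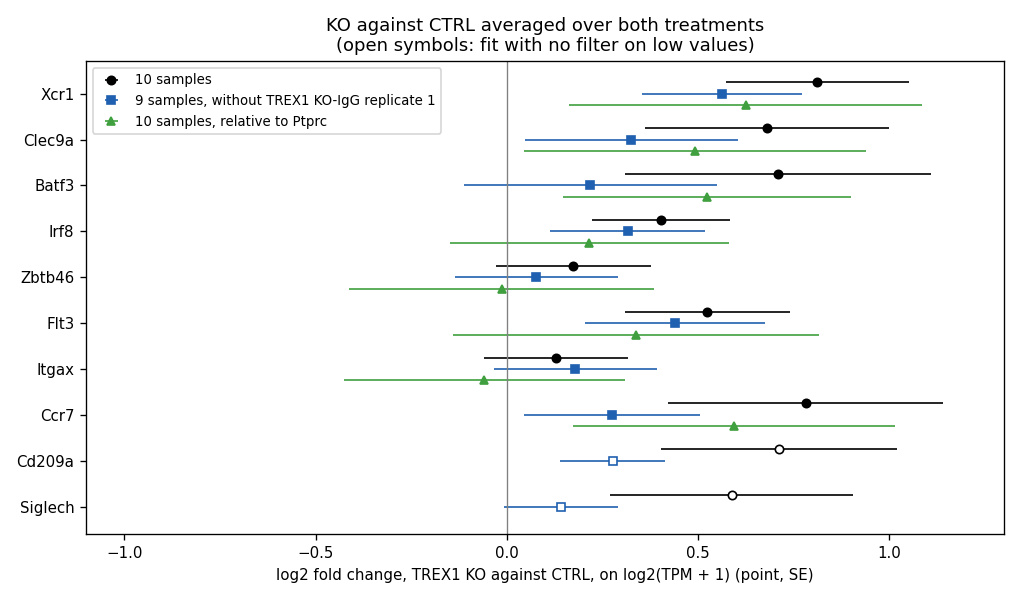
Log2 fold change of each dendritic cell gene in KO against CTRL tumours, averaged over both treatments, on log2(TPM + 1) (horizontal axis; points are estimates, lines 1 SE), with all 10 samples, without KO-IgG replicate 1, and relative to Ptprc. Leaving out that library lowered Batf3 from 0.71 to 0.22, Ccr7 from 0.78 to 0.28, Xcr1 from 0.81 to 0.56 and Flt3 from 0.52 to 0.44.

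Within each antibody treatment the order of the members differed, but no member was called. Under isotype antibodies Xcr1 had a log2 fold change of 1.07 ± 0.34 (SE, limma adjusted p = 0.747), Batf3 1.02 ± 0.57, Clec9a 0.94 ± 0.45 and Irf8 0.58 ± 0.26. Itgax was at -0.09 ± 0.27. In that comparison 0 of the 13886 genes were called (0.0%), with 5.15% at an unadjusted p under 0.05. Among these were 2 of the 8 tested members, Xcr1 and Irf8. Xcr1 entered the test through KO libraries only, so nothing is read from that count. Ccr7 was at 0.56 ± 0.51 and turned to -0.45 ± 0.36 without KO-IgG replicate 1.

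Under checkpoint antibodies Ccr7 had a log2 fold change of 1.00 ± 0.51 (SE, limma adjusted p = 0.682), Flt3 0.62 ± 0.31 (adjusted p = 0.664) and Xcr1 0.55 ± 0.34 (adjusted p = 0.746). Their order depends on the pseudocount: with 0.1 TPM they were 1.46, 1.62 and 1.42. Zbtb46 was at -0.05 ± 0.29. Here 0.0072% of genes were called, and 0 members, with 0 members at an unadjusted p under 0.05 against 7.98% of all genes. Ccr7 was called only with KO-IgG replicate 1 left out and the nearly identical libraries counted singly (1.07 ± 0.23 SE, limma adjusted p = 0.0306), where 3.8% of genes were called. Since Ccr7 was below every CTRL-IgG library in those 2 KO-IgG libraries and above every CTRL library in KO-ICB, the difference between treatments was tested as an interaction, which was 0.44 ± 0.72 (SE, limma adjusted p = 0.999), and 1.46 ± 0.46 without KO-IgG replicate 1 (limma adjusted p = 0.999).

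Checkpoint antibodies in CTRL tumours left the members close to their isotype values, with a median log2 fold change of -0.16 beside -0.01 for all genes. Itgax was lower by the largest amount, with a log2 difference of -0.52 ± 0.24 (SE, limma adjusted p = 1), and Zbtb46 was higher, at 0.49 ± 0.26 (SE, limma adjusted p = 1). In KO tumours the same contrast gave -0.07 ± 0.29 for Itgax and 0.04 ± 0.31 for Zbtb46, and the interactions of 0.45 ± 0.38 and -0.45 ± 0.41 did not pass (limma adjusted p = 0.999). Xcr1 stood at -0.68 ± 0.37 and Clec9a at -0.70 ± 0.49 between KO-ICB and KO-IgG. Without KO-IgG replicate 1 these were -0.18 ± 0.35 and 0.00 ± 0.46. By limma, 0 members and 0.0% of genes were called in each of these 3 comparisons. The unadjusted p was under 0.05 for 0 of the 8 members in all 3, and for 1.27% of all genes between antibodies in CTRL tumours, 3.19% between antibodies in KO tumours and 1.41% in the interaction.

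Ratios between members within a tumour set markers of different cell types side by side, each as log2 of (TPM + 1) over (TPM + 1). Because Clec9a, Cd209a and Siglech were mostly under 1 TPM, this pseudocount holds their ratios near 0, and the test says little of them. The mean log2 ratio of Clec9a to Cd209a, cDC1 to cDC2 or monocyte-derived cells, was 0.56 ± 0.29 in KO (SD, n = 4) and 0.59 ± 0.42 in CTRL (SD, n = 6), a difference of -0.03 (two-sided exact permutation p = 0.914). That of Clec9a to Siglech, cDC1 to pDC, was 0.34 ± 0.24 and 0.24 ± 0.30, a difference of 0.09 (exact permutation p = 0.6). That of Ccr7 to Zbtb46, mature to all conventional cells, was -0.11 ± 0.68 and -0.72 ± 0.53, a difference of 0.61 (exact permutation p = 0.143). Adjusted over the 3 ratios, the exact permutation p-values were 0.914, 0.9 and 0.429, and the smallest p that the 210 splits allow is 0.00476. With a pseudocount of 0.1 the differences were -0.70, 0.11 and 0.81. Leaving out 1 sample moved the difference for Ccr7 to Zbtb46 between 0.36, without KO-IgG replicate 1, and 0.90, without the averaged KO-IgG pair. These values do not show whether the cell types shifted against each other.

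Of the longer lists of these cell types, 1 gene was called, and 1 more among the ligands and growth factors of dendritic cells. Of all genes tested 0.108% were called, and for 1.61% every KO library lay above every CTRL library. Clnk and Il13 below, like Xcr1 and Flt3, entered the test through KO libraries only. Of 14 tested cDC1 genes 11 lay higher in KO tumours, with a median log2 fold change of 0.36 beside -0.03 for all genes, and 0 were called. Without KO-IgG replicate 1 these were 9 of 14 and 0.30, beside -0.09 for all genes. The 3 with the smallest p were Itgae, Xcr1 and Clnk. Itgae, the CD103 integrin of tissue cDC1 and resident T cells, was at 1.00 to 1.78 TPM in CTRL and 2.34 to 3.92 TPM in KO libraries, without overlap (log2 fold change 0.79 ± 0.20 SE, limma adjusted p = 0.180). Clnk, an adaptor protein gene, was at 0.10 to 0.64 TPM in CTRL and 0.66 to 1.72 TPM in KO libraries, also without overlap (0.72 ± 0.23 SE, limma adjusted p = 0.261). For both genes KO-IgG replicate 1 was the lowest KO library. With Xcr1 they made up 3 of the 15 cDC1 genes measured that did not overlap.

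Of 8 tested cDC2 genes 7 lay higher, with a median of 0.43 and 0 called. Without KO-IgG replicate 1 only 4 of the 8 lay higher, with a median of 0.02. The summed level of the 12 cDC2 genes was 374 TPM in that library, against 90.0 to 105 TPM for the remaining KO tumours and 95.2 to 210 TPM in CTRL, and 9 of the 12 were highest there. Cd7 had a log2 fold change of 0.77 ± 0.29 (SE) and Clec12a, an inhibitory lectin, one of 0.78 ± 0.44 (0.18 ± 0.30 without KO-IgG replicate 1), while Klf4, a transcription factor needed by a subset of cDC2 and high in keratinocytes, was at -1.07 ± 0.57 (-0.57 ± 0.26 without CTRL-ICB replicate 3). Klf4 reached 87.6 TPM in CTRL-ICB replicate 3, the library with the most Krt5, and lay at 4.95 to 16.5 TPM in the others. Clec12a reached 24.3 TPM in KO-IgG replicate 1 and no more than 8.73 TPM elsewhere.

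Of 23 tested genes of mature and migratory dendritic cells 13 lay higher, with a median of 0.02, near that of all genes (10 and -0.05 without KO-IgG replicate 1). Apol7c, a gene of the apolipoprotein L family, was called. It was at 0.09, 1.08 and 0.48 TPM in CTRL-IgG, 0.48, 1.27 and 0.21 TPM in CTRL-ICB, 2.99, 7.03 and 5.40 TPM in KO-IgG, and 6.81, 8.64 and 10.96 TPM in KO-ICB. The KO libraries were all higher, with KO-IgG replicate 1 the lowest of them, and the log2 fold change was 2.26 ± 0.30 (SE, limma adjusted p = 0.0389). Leaving out any 1 sample other than KO-IgG replicate 1 ended the call, with adjusted p-values of 0.0509 to 0.258. In all, 15 of 21 alternatives ended it, among them quantile normalization (0.0640), median centring (0.0614), a pseudocount of 0.1 (0.0907), no filter (0.0580) and a filter of 5 TPM (0.0937), each a limma adjusted p. The log2 fold change stayed between 2.05 and 3.51. Ccl17, a chemokine for CCR4, had a log2 fold change of 1.25 ± 0.38 (limma adjusted p = 0.244), and Pdcd1lg2, which encodes the PD1 ligand PD-L2, one of 1.40 ± 0.44 (limma adjusted p = 0.256).

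Of 11 tested pDC genes 8 lay higher, with a median of 0.48 and 0 called (6 of 11 and 0.45 without KO-IgG replicate 1). The genes with the smallest p were the interferon-induced Irf7 (1.36 ± 0.35 SE, limma adjusted p = 0.180) and Bst2 (0.94 ± 0.28 SE, limma adjusted p = 0.238), which many cells transcribe, and Cox6a2, a cytochrome oxidase subunit (0.89 ± 0.30 SE, limma adjusted p = 0.292). Irf7 was at 87.2 to 113 TPM in CTRL libraries, at 319 to 392 TPM in 5 KO libraries, with KO-IgG replicate 1 below both ranges (81.2 TPM). Irf7 therefore ran opposite to Siglech in that library. Without that library the log2 fold change was 1.92 ± 0.14 (SE) for Irf7 and 1.34 ± 0.17 (SE) for Bst2. That fit leaves 1 KO-IgG sample, so effect sizes are given without a statement of what was called. All 12 tested genes of conventional dendritic cells lay higher, with a median of 0.35 and 0 called (9 of 12 and 0.43 without KO-IgG replicate 1). Btla, an inhibitory receptor of lymphocytes and dendritic cells, had the smallest p of them, with a log2 fold change of 0.76 ± 0.24 (SE, limma adjusted p = 0.257). Alone of the 12, Btla did not overlap between KO (1.12 to 2.35 TPM) and CTRL libraries (0.25 to 1.06 TPM). By p, it was followed by 2 others. These were Ciita, the regulator of MHC class II genes (0.55 ± 0.19), and H2-Oa, a class II chaperone chain of B cells and dendritic cells (1.23 ± 0.43). H2-Oa was at 1.77 ± 0.35 (SE) without KO-IgG replicate 1 and at 0.70 ± 0.35 without the averaged KO-IgG pair. Either fit leaves 1 KO-IgG sample, so only the effect size is given.

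**Figure D3:**
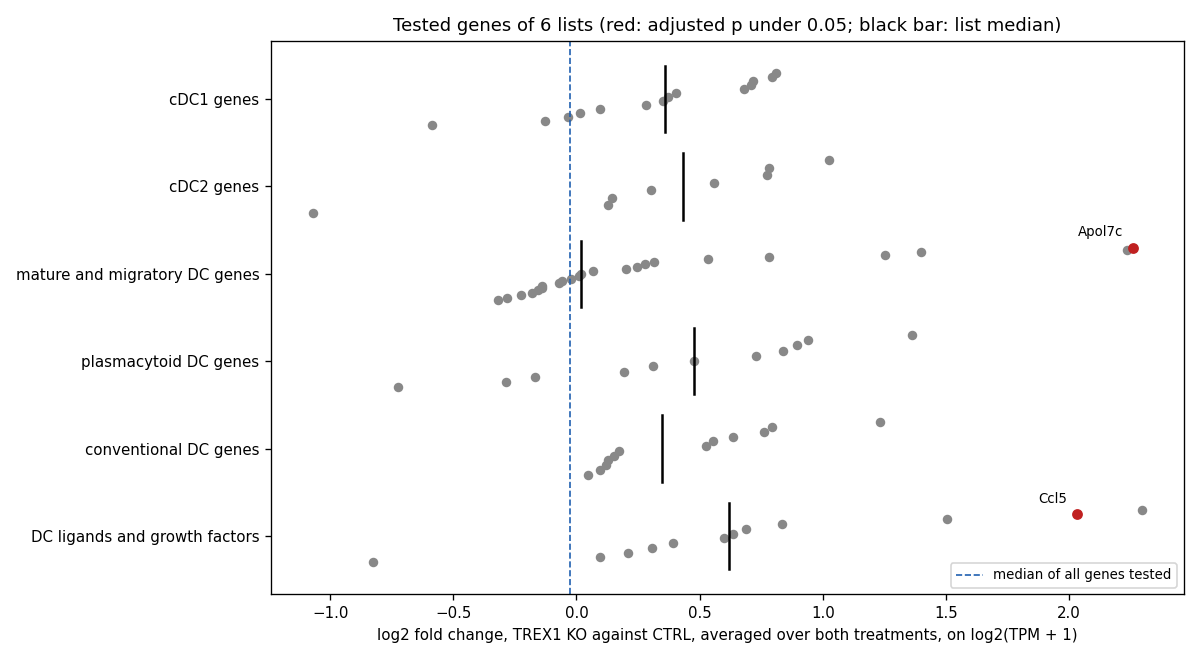
Log2 fold change in KO against CTRL tumours, averaged over both treatments (horizontal axis, log2(TPM + 1)), of each tested gene of 6 lists, with each point a gene, black bars the list medians and the dashed line the median of all genes tested. Red points are genes called at an adjusted p under 0.05, Apol7c at 2.26 and Ccl5 at 2.03.

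A list of ligands and growth factors of dendritic cells was measured in the same libraries. On it Xcl1, Flt3l, Ccl19 and Ccl21a encode ligands of receptors among the members, and the others do not. Of the 12 tested genes of the list 11 lay higher in KO tumours, with a median of 0.62 (11 and 0.53 without KO-IgG replicate 1). Ccl5, a chemokine of T and NK cells that draws dendritic cells, was called. It was at 24.1, 49.0 and 56.7 TPM in CTRL-IgG, 49.9, 60.0 and 26.6 TPM in CTRL-ICB, 232, 174 and 194 TPM in KO-IgG, and 151, 142 and 149 TPM in KO-ICB. KO and CTRL libraries were far apart, with a log2 fold change of 2.03 ± 0.28 (SE, limma adjusted p = 0.0422). The call was lost in 12 of 21 alternatives, 8 of them leaving out 1 sample (all but CTRL-IgG replicate 3 and KO-IgG replicate 1), with the fold change between 1.85 and 2.15.

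Xcl1, the ligand of XCR1, was at 0.61, 6.58 and 7.12 TPM in CTRL-IgG, 3.77, 3.98 and 4.97 TPM in CTRL-ICB, 7.73, 37.7 and 34.4 TPM in KO-IgG, and 30.6, 24.0 and 36.2 TPM in KO-ICB. All KO libraries were above all CTRL libraries, as for its receptor, but KO-IgG replicate 1 was the lowest KO library for Xcl1 and the highest for Xcr1. Over the 10 samples the log2 fold change of 2.30 ± 0.52 (SE, limma adjusted p = 0.153) did not pass. It was 2.82 ± 0.50 (SE) without that library, a fit that leaves 1 KO-IgG sample and for which only the effect size is given. The summed level of 7 NK cell markers, NK cells being a source of XCL1, was 139 TPM for KO-IgG replicate 1, against 95.8 to 142 TPM for the remaining KO tumours and 23.2 to 70.5 TPM in CTRL, and its part in the values of Xcl1 was not tested. Il13 had a log2 fold change of 0.83 ± 0.28 (SE, limma adjusted p = 0.290), and one of 1.16 ± 0.23 (SE) without KO-IgG replicate 1. The FLT3 ligand gene Flt3l reached 22.8 TPM in KO-IgG replicate 1, while the other 11 libraries ranged from 7.99 to 14.5 TPM. Ccl21a, a ligand of CCR7, ranged from 1.07 to 21.8 TPM in CTRL and from 5.92 to 47.7 TPM in KO libraries. Ccl19, the other CCR7 ligand, missed the filter, at 0 to 0.88 TPM in CTRL and 0 to 0.29 TPM in KO libraries.

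**Figure D4:**
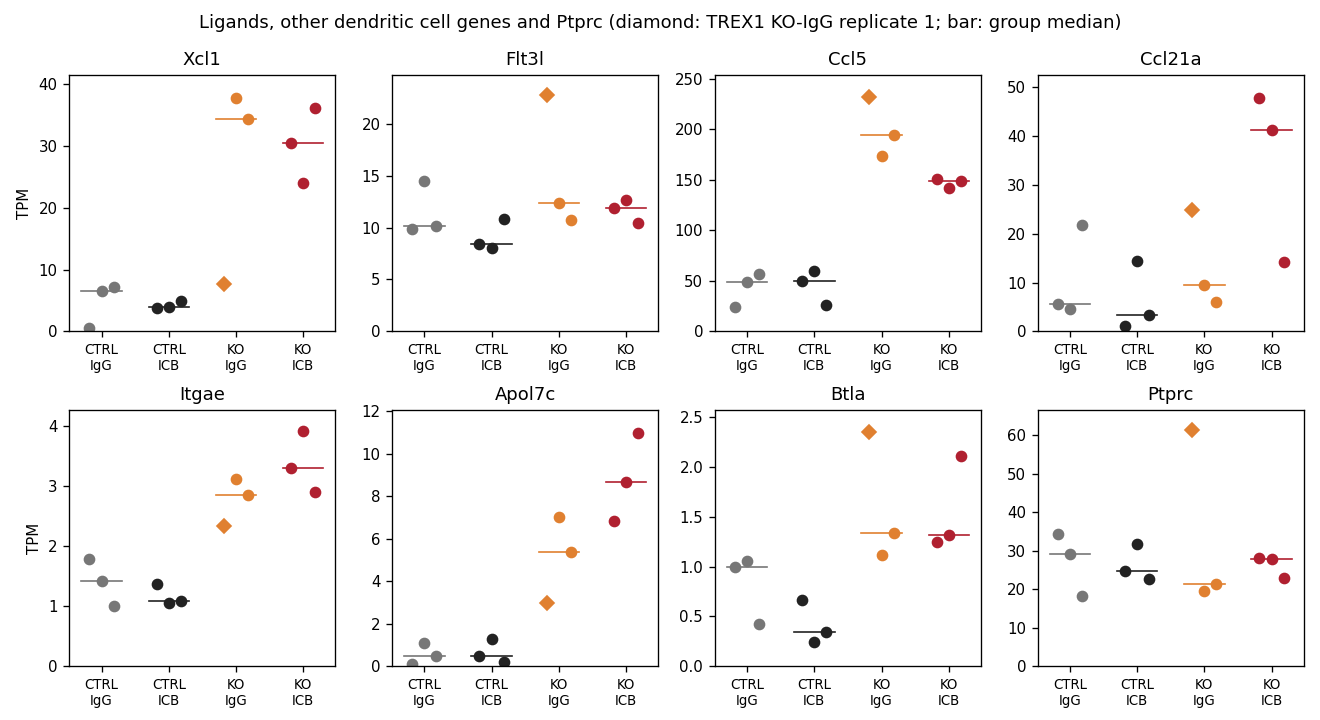
Levels in TPM (vertical axes, linear, starting at 0) of 4 ligands, 3 further dendritic cell genes and Ptprc in the 12 libraries by group, with points for libraries, bars for group medians and the diamond for KO-IgG replicate 1. Xcl1 stood at 24.0 to 37.7 TPM in 5 KO libraries and only 7.73 TPM in KO-IgG replicate 1, where Ptprc was at 61.3 TPM.

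The members moved together largely through 1 library. Across the 45 pairs of members the median Pearson correlation of log2(TPM + 1) was 0.58 over the 10 samples and 0.19 over the 9 without KO-IgG replicate 1, with 19 and 5 pairs above 0.7. These are descriptions, since the samples share their groups and a common composition. Among all tested genes, the 3 most like each member over the 10 samples were as follows. They were Gimap7, Klrk1 and Ms4a4b for Xcr1 (r of 0.98, 0.96 and 0.95, and 0.93, 0.92 and 0.90 without KO-IgG replicate 1). For Clec9a they were Il21r, Cd48 and Il2rg (0.98, 0.96 and 0.95), for Batf3 Ptpn6, Cd48 and Pirb (0.98, 0.98 and 0.97), and for Irf8 Rpsa-ps9, Ctss and Pstpip1 (0.96, 0.93 and 0.93). For Flt3 they were Gm47937, N4bp2l1 and Nop14 (0.96, 0.95 and 0.93), and for Ccr7 Slc45a3, Papss2 and Trbv30 (0.97, 0.96 and 0.95). Itgax was most like Vars2, Smyd5 and Tmem81 (0.87, 0.85 and 0.83) and Zbtb46 most like Crem, Bpnt1 and Trbj1-5 (0.89, 0.85 and 0.85), none of which is a dendritic cell marker on the lists used.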

How the data were processed

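RNA of 12 tumours was extracted with a kit of Omega Bio-tek and sequenced as polyadenylated libraries by Novogene, per the labels' protocols. The authors deposited 1 table of TPM values per gene symbol. Kallisto and GRCm38 are named in the submitters' processing notes, without versions. Libraries of 1 group with a robust SD of the log2 ratio under 0.1 over genes above 300 TPM were averaged and counted as 1 sample, giving 10 samples. With limma 3.58.1 in R 4.3.3, log2(TPM + 1) of the 13886 genes reaching 1 TPM in 3 or more libraries was fitted with 4 group means, an intensity trend and robust shrinkage, with Benjamini-Hochberg adjustment over all genes in each of 6 comparisons and a threshold of 0.05. The limma fit of the averaged comparison was tested on simulated data with large changes in genes of higher level. Averaging of libraries, changes in low genes and changes as small as those of the members were not simulated. Exact permutation tests (scipy 1.17.1) compared 3 ratios. Positions come from GENCODE M21 and promoter windows from RefSeq, for which 9 of 10 members matched. The members, the gene lists and the tests were chosen with earlier results of these data known. The other genes named are those called, or otherwise up to 3 with the smallest p, of each list, and the 3 most correlated with each member. Bcl2l14, Flt3l, Ccl19, Ccl21a and the markers of other cells are given as values beside them. Replicate numbers did not pair the samples. Alternatives changed the scaling, pseudocount, filter, shrinkage, samples and reference to Ptprc.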

Additional observations from a re-analysis of the deposited data

Results flagged for a closer look

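For each member, the KO samples (n = 4) and the CTRL samples (n = 6) were searched for 1 sample far from the others by Dixon's gap ratio at its 95% critical value, and 4 of 20 groups looked at held one. Chance flags about 1 in 20 such groups if their values are normal. The groups share the same samples, so the flags are not independent and are not read as an excess. All 4 were the KO group, and in each the far sample was KO-IgG replicate 1: Xcr1 at 3.18 TPM, Clec9a at 4.65 TPM, Batf3 at 31.6 TPM and Cd209a at 3.96 TPM. The gap to the nearest other KO sample, as a share of the whole range, was 0.892 for Xcr1, 0.979 for Clec9a, 0.946 for Batf3 and 0.916 for Cd209a, above the critical value of 0.829. In that library Ptprc was at 61.3 TPM, Adgre1, a macrophage marker, at 83.7 TPM, Cd3e, a T cell marker, at 25.3 TPM and Epcam at 0.66 TPM, and the part of these in the 4 values was not tested.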

How the results depend on the processing

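No member was called in any of the 6 comparisons under quantile normalization, median centring, a pseudocount of 0.1, no filter, a filter of 5 TPM (which left 3 members), plain shrinkage, fits limited to the groups compared (not run for the averaged comparison or the interaction), reference to Ptprc, leaving out both keratinocyte libraries, libraries counted singly (where 3.23% of genes were called in the averaged comparison) or leaving out any 1 sample. The exception was the setting added after seeing the data, 12 libraries without KO-IgG library 1, which called 1 member averaged over treatments (Xcr1) and 1 in KO-ICB (Ccr7). With the replicate number as a block over the 12 libraries 0 members were called. Same-numbered libraries deviated with correlations of -0.36 to 0.27, so the numbers were not taken as pairs. The direction turned relative to Ptprc for Itgax (-0.059) and Zbtb46 (-0.013, and 0.012 for its interaction). Without KO-IgG replicate 1, and in the added setting, it turned for Ptprc itself (-0.20 and -0.17), Ccr7 in KO-IgG (-0.45 and -0.46) and Clec9a between KO-ICB and KO-IgG (0.0048 and 0.041), whose other extremes on leaving out 1 sample, reached without the averaged KO-IgG pair, were 0.57, 1.57 and -1.41. Leaving out 1 sample moved the difference in log2 ratio of Clec9a to Cd209a between -0.16 and 0.091, that of Ccr7 to Zbtb46 between 0.36 and 0.90, and that of Clec9a to Siglech between -0.019 and 0.17, which was -0.020 without both libraries holding keratinocyte transcript. The causes were not tested. Unknown depth limits the 5 members with a median under 1 TPM.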

Other observations

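Pacsin1, a gene of pDC and neurons that missed the filter on low values, was at 0.09 to 0.33 TPM in the CTRL libraries and at 0.71 to 0.97 TPM in the KO libraries, without overlap. It was picked for these values and has no test. Of the 17 pDC genes measured it alone did not overlap, and 1.61% of all genes tested lay wholly higher in KO libraries. H2-Oa reached 25.6 and 23.2 TPM in libraries 2 and 3 of KO-IgG, which are nearly identical, and was at 1.66 to 8.20 TPM in the other 10 libraries. Irf4, a transcription factor of cDC2 and of activated lymphocytes, reached 2.53 TPM in KO-IgG replicate 1 and no more than 0.54 TPM elsewhere. Cxcr3, which marks some cDC1 and activated T cells, was lower in KO-IgG replicate 1 (3.95 TPM) than in the remaining KO libraries (9.42 to 12.6 TPM), an order opposite to that of Xcr1.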
